A study of Mus musculus with 3 samples.

Results

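The genes described here are the tumour necrosis factor (TNF) superfamily of ligands and receptors, the TRAF adaptors, the NF-kappaB subunits with their kinases and inhibitors, the Tnfaip genes and the Toll-like receptors. They were chosen by symbol among the protein-coding genes of the table, which gave 80 genes of 39304 rows. The cells came from kidney glomeruli, where blood is filtered, of 1 male mouse of the C57BL/6 strain, wild type and 8 weeks old. They were captured singly in a Fluidigm C1 microfluidic system, and qPCR for marker genes served to recognise each. For RNA sequencing, cDNA from 15 mesangial cells, which hold the capillary loops together, and from 15 endothelial cells, the lining of those loops, was pooled and split into 3 aliquots, each made into a library. All libraries therefore belong to 1 group of untreated cells, no treatment or genotype is compared, and every SD below is over the aliquots (n = 3) and measures library making and sequencing alone. Which of the pooled cell types made a transcript, and whether few cells made much or many made little, cannot be told apart.

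TNF family ligands are trimeric cytokines that bring their receptors together at the cell surface. Receptors recruit adaptor proteins such as TRADD, the kinase RIPK1 and the TRAFs, which activate the IkappaB kinase (IKK) complex. IKK marks the IkappaB inhibitors for destruction, and NF-kappaB dimers then enter the nucleus and switch on inflammatory and survival genes, among them genes of their own inhibitors. Toll-like receptors recognise microbial molecules, and most of them reach the same kinase complex through MYD88. In the glomerulus this pathway is best known from inflammatory kidney disease, where mesangial and endothelial cells respond to TNF with adhesion molecules and chemokines.

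Because NF-kappaB binds DNA at kappaB sites in genes of its own pathway, the promoters of the family were searched for a kappaB decamer, GGGNNTTTCC on either strand, in windows of 300 bases (250 before and 50 after the annotated start). RefSeq promoter windows on GRCm38.p6 were matched for 65 of the 80 genes. With the first listed promoter of each gene, 8 of 65 genes (12.3%) held the decamer, against 1.54% of 16209 protein-coding genes. Over all 32851 promoter windows the share was 1.63%. The decamer was chosen after values had been seen and for its known place in this pathway, and the shares were not tested. The 4 promoters below are shown because they belong to an inhibitor, a feedback enzyme and a pair of NF-kappaB subunits, and because the levels of these genes range from the highest of the family to a listing at 0. Only the 250 bases before each start are printed, 5′ to 3′ on the gene's strand, with the decamer in capitals.
Nfkbia, chr12:55492648-55492897, minus strand: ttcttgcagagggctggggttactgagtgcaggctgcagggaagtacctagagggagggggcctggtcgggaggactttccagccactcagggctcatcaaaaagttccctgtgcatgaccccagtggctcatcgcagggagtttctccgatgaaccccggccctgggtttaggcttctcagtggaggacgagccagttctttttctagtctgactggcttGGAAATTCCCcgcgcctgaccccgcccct
Tnfaip3, chr10:19015411-19015660, minus strand: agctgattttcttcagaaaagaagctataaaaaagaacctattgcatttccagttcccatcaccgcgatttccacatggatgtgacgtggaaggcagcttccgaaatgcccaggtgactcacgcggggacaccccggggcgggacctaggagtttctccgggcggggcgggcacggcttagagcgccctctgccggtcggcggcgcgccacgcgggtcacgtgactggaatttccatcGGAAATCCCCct
Nfkb2, chr19:46304487-46304736, plus strand: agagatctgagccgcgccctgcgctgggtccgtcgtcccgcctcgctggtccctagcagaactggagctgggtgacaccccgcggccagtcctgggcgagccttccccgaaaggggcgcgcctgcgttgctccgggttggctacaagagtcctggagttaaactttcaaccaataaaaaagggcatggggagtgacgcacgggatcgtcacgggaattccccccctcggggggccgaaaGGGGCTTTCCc
Rel, chr11:23770970-23771219, minus strand: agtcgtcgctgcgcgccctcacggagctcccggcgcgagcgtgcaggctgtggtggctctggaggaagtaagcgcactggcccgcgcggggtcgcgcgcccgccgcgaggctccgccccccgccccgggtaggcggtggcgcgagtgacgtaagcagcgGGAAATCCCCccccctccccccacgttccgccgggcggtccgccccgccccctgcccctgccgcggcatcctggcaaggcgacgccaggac
The decamer of Nfkbia, the gene of IkappaBalpha, was GGGAATTTCC on the other strand, at position -29 from the annotated start. Tnfaip3, which encodes the deubiquitinase A20, had GGGGATTTCC on the other strand at position -12. Nfkb2, the gene of the p100 precursor, had GGGGCTTTCC at position -11 of the first of its 3 listed promoters, and GGGACTTTCC in a stretch that its other promoters share. Rel, which encodes c-Rel, had GGGGATTTCC on the other strand at position -91. The remaining matches in a first listed promoter were in Traf3 (GGGGATTTCC), Traf2 (GGGTGTTTCC), Tlr3 (GGGAGTTTCC) and Tnfrsf25 (GGGCTTTTCC), and Tnfrsf9 had GGGGATTTCC in its other promoter. A match describes letters in a window and does not show binding.

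Levels of the genes with the decamer ranged from the highest of the family to a listing at 0. Expression is given in the deposited FPKM, that is, per kilobase of gene length and per 1000000 library reads. Nfkbia averaged 175 ± 2.68 FPKM and Tnfaip3 7.37 ± 0.241 FPKM. Below them were Traf3 with 2.13 ± 0.120 FPKM, Traf2 with 1.28 ± 0.164 FPKM, Nfkb2 with 0.421 ± 0.0387 FPKM and Tlr3 with 0.235 ± 0.128 FPKM. Rel, Tnfrsf9 and Tnfrsf25 were listed at 0 in every aliquot.

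Most of the pathway's intracellular machinery was measured in the pool, and most of its ligands, receptors and Toll-like receptors were not. A gene was called detected when it had at least 1 FPKM in every aliquot, and 28 of the 80 genes (35%) met this, against 36.5% of 21226 protein-coding genes. The family as a whole was therefore detected about as often as other genes. A further 11 genes had a value above 0 in some aliquot, and 41 (51.2%) were listed at 0 in all of them, against 54.5% of protein-coding genes. A mean of at least 10 FPKM was reached by 18 family genes (22.5%), against 24.8% of protein-coding genes. The median over all 80 genes was 0 FPKM, as it was over all protein-coding genes. By role, detection was 3 of 3 for IKK subunits, 7 of 10 for adaptors, RIPK1 and TRAFs, 3 of 6 for Nfkbi-named genes, 4 of 8 for Tnfaip genes, 2 of 5 for NF-kappaB subunits, 6 of 23 for TNF family receptors, 2 of 13 for TNF family ligands and 1 of 12 for Toll-like receptors. These roles were not tested against each other.

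**Figure D1:**
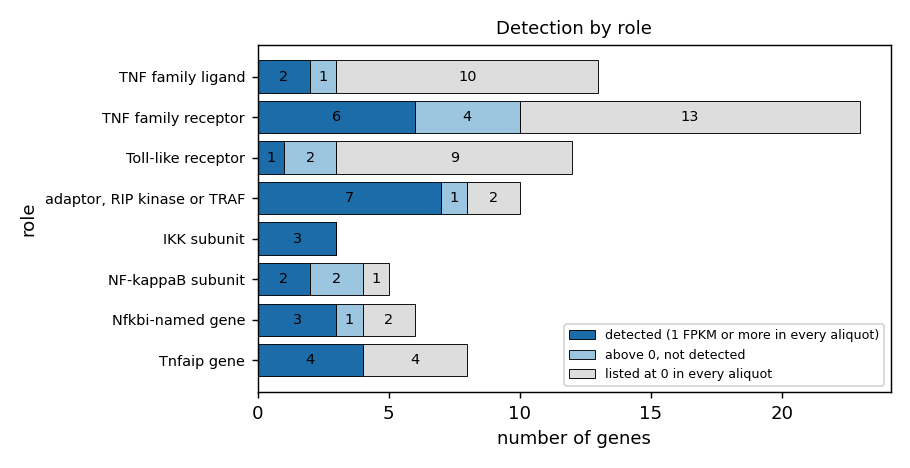
Number of genes of each role (y axis) that were detected, above 0 but not detected, or listed at 0 in every aliquot (x axis, number of genes, with the count printed in each part of a bar). All 3 IKK subunits were detected, and 10 of 13 ligands were listed at 0.

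Library totals behind the FPKM values were 9141422, 10427635 and 10976563 reads for aliquots 1, 2 and 3, and family genes took 19692, 22841 and 23868 of those reads. These were 0.215%, 0.219% and 0.217% of the totals. The 5 genes with the most reads held 64.5% of the 66401 family reads. Markers matched the label in part: all 11 mesangial and all 12 endothelial markers were detected, but so were 6 of 8 podocyte markers, Wt1 with 101 ± 3.18 FPKM and nephrin (Nphs1) with 37.6 ± 2.37 FPKM among them. The summed podocyte level was 276 to 293 FPKM over the aliquots, against 3106 to 3189 FPKM for the endothelial markers. The part of podocyte RNA in the values below was not tested. All 12 macrophage and dendritic cell markers (Ptprc, Csf1r and Cd68 among them), all 6 neutrophil and all 6 tubule markers were listed at 0, and of 10 lymphocyte markers only Lck had reads, 3 in all. Genes that most cells use can also be listed at 0 in this table, so a zero is reported as listed and not as absence.

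Among ligands, only the genes of TWEAK and TRAIL were detected. Tnfsf12, the gene of TWEAK (chromosome 11, 69686250 to 69695849, minus strand, GRCm38), had 15.4, 15.5 and 14.8 FPKM in aliquots 1, 2 and 3. The aliquots lay close together, with a mean of 15.2 ± 0.345 FPKM. Tnfsf12 shares 48.3% of its exonic bases with Tnfsfm13, the read-through gene that joins it to its neighbour Tnfsf13. How reads in the shared exons were counted, or whether they were left out, is not given in the sources used. Both Tnfsfm13 and Tnfsf13, the gene of APRIL, were listed at 0, and the levels of the 3 genes are uncertain. Tnfsf10, which encodes the death ligand TRAIL, had 1.87, 1.57 and 1.80 FPKM, from 51, 49 and 59 reads. Tnfsf15, the gene of the endothelial cytokine TL1A, had 1 read in aliquot 2 alone.

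TNF itself (Tnf) and lymphotoxin alpha (Lta) were listed at 0 in every aliquot, as were Tnfsf4, Tnfsf8, Tnfsf9, Tnfsf11, Tnfsf13b, Tnfsf14 and Tnfsf18. Several of these encode signals of immune cells, such as BAFF (Tnfsf13b) and the ligand of 4-1BB (Tnfsf9). For Tnf, 3 reads over the pooled libraries would correspond to 0.0633 FPKM at its mean transcript length, a limit that covers counting error only. Adam17, the protease that sheds TNF from the membrane, had 27.6 ± 0.986 FPKM.

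As deposited, TNF receptor 1 was the most abundant receptor of the family, at 9.74 times the level of TNF receptor 2. Tnfrsf1a (chromosome 6, 125349362 to 125362484, plus strand), whose protein carries a death domain and binds TNF, had 90.3, 95.2 and 91.5 FPKM. Tnfrsf1b (chromosome 4, 145213463 to 145246870, minus strand), which also binds TNF but lacks a death domain, had 9.60, 9.37 and 9.47 FPKM. The aliquots of the 2 genes did not overlap. On the log2(FPKM + 1) scale Tnfrsf1a exceeded Tnfrsf1b by 3.15 ± 0.05. With lengths of the longest annotated transcripts the ratio of mean levels was 6.94, and Tnfrsf26, described next, was the highest receptor gene. The death receptor gene Fas had 44.04, 41.05 and 39.7 FPKM. Fas stood below Tnfrsf1a in every aliquot, by a log2 difference of -1.13 ± 0.10 on the same scale, a ratio of mean levels of 0.450, or 0.723 with the longest transcripts. Its ligand gene Fasl was listed at 0.

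A cluster of mouse receptor genes on chromosome 7 was measured at very unequal levels. Tnfrsf26 (143607659 to 143628722, minus strand) had 78.9, 82.2 and 79.7 FPKM. Its neighbour Tnfrsf22 (143634806 to 143649661, minus strand), a decoy receptor for TRAIL in mice, had 6.33, 5.55 and 5.85 FPKM. Tnfrsf23 (143665809 to 143685872, minus strand), the other decoy receptor, had 0.544, 0.477 and 0.679 FPKM from 14 reads in all. The order of the 3 genes was the same in each aliquot, with no overlap between them. Tnfrsf22 and Tnfrsf23 share sequence: 17.3% of the 50-base words in Tnfrsf22 transcripts also occur in Tnfrsf23 transcripts, and 18.0065% in the other direction. With transcripts of any other gene the shares were 27.4% for Tnfrsf22 and 19.3% for Tnfrsf23. How reads of shared sequence were treated is not given, so both levels are uncertain. For Tnfrsf26 the share with transcripts of any other gene was 1.89%. Tnfrsf10b, the signalling receptor for TRAIL, had 0.414, 0.363 and 0.373 FPKM and was below its ligand Tnfsf10 by -0.99 ± 0.06 (log2(FPKM + 1) scale), a ratio of mean levels of 0.220, or 0.366 with the longest transcripts.

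Tnfrsf14, the gene of HVEM, a receptor for LIGHT and lymphotoxin, had 24.97, 24.4 and 25.1 FPKM, while the LIGHT gene Tnfsf14 was listed at 0. Tnfrsf19, the gene of TROY, lay at the detection limit with 1.19, 1.06 and 0.924 FPKM. It missed the limit through aliquot 3 alone. Tnfrsf21, the gene of death receptor 6, had 1 read in aliquot 1. The other 13 receptor genes were listed at 0. They include Tnfrsf12a, the receptor for the TWEAK ligand that was detected, both receptors for RANK ligand (Tnfrsf11a and the decoy Tnfrsf11b), Edar, Eda2r and the lymphocyte receptors Tnfrsf4, Tnfrsf8, Tnfrsf9, Tnfrsf13b, Tnfrsf13c, Tnfrsf17, Tnfrsf18 and Tnfrsf25. For Tnfrsf12a, whose transcripts are short, 3 pooled reads correspond to 0.127 FPKM.

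Of 11 superfamily genes whose symbols follow another pattern, 2 (18.2%) were detected and 9 were listed at 0, among them Cd40, Ltb, Ngfr and Relt. Among protein-coding genes 36.5% were detected and 54.5% were listed at 0. The lymphotoxin beta receptor gene Ltbr had 2.49, 1.66 and 3.25 FPKM. Cd27, known as a receptor of T cells, had 44.2, 48.1 and 46.1 FPKM, while the T cell genes Cd3e and Cd4 were listed at 0. The gene of its ligand, Cd70, was listed at 0.

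At the limit of 1 FPKM in every aliquot, Tlr4 was the one Toll-like receptor gene detected, and it was the second highest of the whole family as deposited. Tlr4 (chromosome 4, 66827584 to 66930284, plus strand), the receptor for bacterial lipopolysaccharide, had 159, 151 and 148 FPKM, from 2583, 2800 and 2882 reads. Aliquot 1 was the highest. Tlr7, an endosomal sensor of single-stranded RNA, had 0.810, 0.900 and 0.585 FPKM. Tlr3, which senses double-stranded RNA, had 0.370, 0.116 and 0.220 FPKM from 29 reads in all. Tlr4 exceeded Tlr3 by 6.97 ± 0.12 (log2(FPKM + 1) scale), a ratio of mean levels of 650.3, or 301 with the longest transcripts. Tlr1, Tlr2, Tlr5, Tlr6, Tlr8, Tlr9, Tlr11, Tlr12 and Tlr13 were listed at 0. Among proteins that serve TLR4, the co-receptor gene Ly96 (MD-2) had 63.5 ± 2.96 FPKM and the adaptor gene Tirap 7.22 ± 0.297 FPKM. The lipopolysaccharide carrier Cd14 and the adaptor genes Ticam1 and Ticam2 were listed at 0.

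MYD88 is the entry point from most Toll-like receptors and RIPK1 one from TNF receptors, and both genes were detected. Myd88 had 22.3, 22.9 and 26.3 FPKM, with aliquot 3 the highest. Ripk1 had 16.3, 19.2 and 18.3 FPKM, with aliquot 1 the lowest. Myd88 was above Ripk1 in every aliquot with no overlap, by 0.39 ± 0.13 on the log2(FPKM + 1) scale. The ratio of mean levels was 1.33, or 1.92 with the longest transcripts. Tradd, the adaptor that links TNF receptor 1 to RIPK1 and TRAF2, was listed at 0.

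TRAF genes were low, apart from Traf7. Traf7, a member with WD40 repeats in place of the usual TRAF domain, had 15.8, 13.9 and 15.2 FPKM. Traf3, a restraint on the non-canonical NF-kappaB pathway, had 2.09, 2.26 and 2.03 FPKM. Traf5 had 2.01, 1.86 and 2.18 FPKM. Traf6, the ubiquitin ligase used by Toll-like receptors, had 1.40, 1.26 and 1.32 FPKM, and Traf2, used by TNF receptors, had 1.09, 1.33 and 1.41 FPKM. The aliquots of Traf6 and Traf2 overlapped, and their log2(FPKM + 1) difference was 0.04 ± 0.14, smaller than its SD. With the longest transcripts as lengths it was -0.26, with Traf2 the higher. Traf7 stood above Traf6 by 2.78 ± 0.05 on that scale. Traf4 had 8, 6 and 2 reads (0.262 FPKM, exact 95% Poisson interval 0.144 to 0.410 for counting error), and Traf1 was listed at 0.

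All subunits of the IKK complex were detected, with the catalytic subunit IKKbeta the highest. Ikbkb (chromosome 8, 22659212 to 22706589, minus strand) had 85.5, 85.8 and 87.5 FPKM. Ikbkg, which encodes the scaffold NEMO, had 20.4, 22.9 and 21.2 FPKM. Chuk, the gene of IKKalpha, had 15.1, 14.7 and 14.9 FPKM. No aliquot of one subunit overlapped with another, and Ikbkb exceeded Chuk by 2.46 ± 0.03 (log2(FPKM + 1) scale), a ratio of mean levels of 5.79.

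Among NF-kappaB subunits, Rela and Nfkb1, which form the classical p65 and p50 dimer, were detected, and the others were not. Rela (chromosome 19, 5637483 to 5648130, plus strand) had 26.6, 29.3 and 29.6 FPKM. Nfkb1 (chromosome 3, 135584655 to 135691547, minus strand), the gene of p105 and p50, had 4.43, 5.48 and 4.66 FPKM. Rela was higher than Nfkb1 by 2.34 ± 0.10 (log2(FPKM + 1) scale), a ratio of mean levels of 5.87, or 10.4 with the longest transcripts. Relb and Nfkb2, the partners of the non-canonical pathway, had 0.684, 0.692 and 0.745 FPKM and 0.454, 0.429 and 0.378 FPKM. Their values rest on 45 and 40 reads. Rel, the c-Rel gene best known from lymphocytes, was listed at 0, where 3 pooled reads correspond to 0.0132 FPKM. The kinase gene Map3k14 (NIK), which starts the non-canonical pathway, had 1.29 ± 0.292 FPKM.

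The inhibitor gene Nfkbia was the highest of all 80 genes and ranked 626 among protein-coding genes. Nfkbia (chromosome 12, 55489410 to 55492647, minus strand) had 172, 177 and 176 FPKM, from 8449 reads in all. The aliquots lay within a coefficient of variation of 1.53%. Nfkbib, the gene of IkappaBbeta, had 10.6, 8.98 and 12.2 FPKM, and Nfkbie, the gene of IkappaBepsilon, had 10.5, 10.8 and 8.58 FPKM. These 2 inhibitors overlapped each other and were both far below Nfkbia: it exceeded Nfkbib by 3.94 ± 0.21 and Nfkbie by 4.01 ± 0.17 (log2(FPKM + 1) scale), with ratios of mean levels of 16.6 and 17.6. With the longest transcripts those ratios were 26.4 and 21.8. Nfkbia also exceeded Rela, whose protein it holds in the cytoplasm, by 2.58 ± 0.06, a ratio of 6.15. Nfkbiz, the gene of the nuclear protein IkappaBzeta, had 12, 8 and 11 reads (0.303 ± 0.0806 FPKM). Nfkbid and Nfkbil1 were listed at 0.

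Tnfaip genes are grouped here by name and not by function, and 4 of 8 were detected. Tnfaip8, named as an inhibitor of apoptosis, had 105, 114 and 105 FPKM. Tnfaip1, which encodes an adaptor of cullin ubiquitin ligases, had 105, 105 and 106 FPKM and the most reads of the family, 12049. Their log2(FPKM + 1) difference, -0.04 ± 0.07, was smaller than its SD as deposited, but was 1.86 in favour of Tnfaip1 with the longest transcripts as lengths. Tnfaip2 had 34.7, 34.6 and 39.7 FPKM, with aliquot 3 the highest. Tnfaip3 had 7.13, 7.39 and 7.61 FPKM, and was below Nfkbia, another gene of negative feedback, by -4.40 ± 0.03 on the log2(FPKM + 1) scale, or by -5.35 with the longest transcripts. Tnfaip6, the gene of the hyaluronan-binding protein TSG-6, and the TIPE genes Tnfaip8l1, Tnfaip8l2 and Tnfaip8l3 were listed at 0.

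Several family genes lie side by side in the genome, with the same or different calls. On chromosome 17, Tnf (35199381 to 35202007), Lta (35203165 to 35205351) and Nfkbil1 (35220175 to 35235792), all on the minus strand, were listed at 0 together. On chromosome 4, the next family gene after Tnfrsf1b was Tnfrsf8 (145267137 to 145315164, minus strand), the CD30 gene, which was listed at 0. Further along, past Tnfrsf9 and Tnfrsf25, which were listed at 0, Tnfrsf14 (154921933 to 154928563, minus strand) was detected. Tnfrsf4 (156013843 to 156016612) and Tnfrsf18 (156026164 to 156028895) lie at a distance from Tnfrsf14 and near each other. Both are on the plus strand, are named OX40 and GITR as proteins, and were listed at 0.

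**Figure D2:**
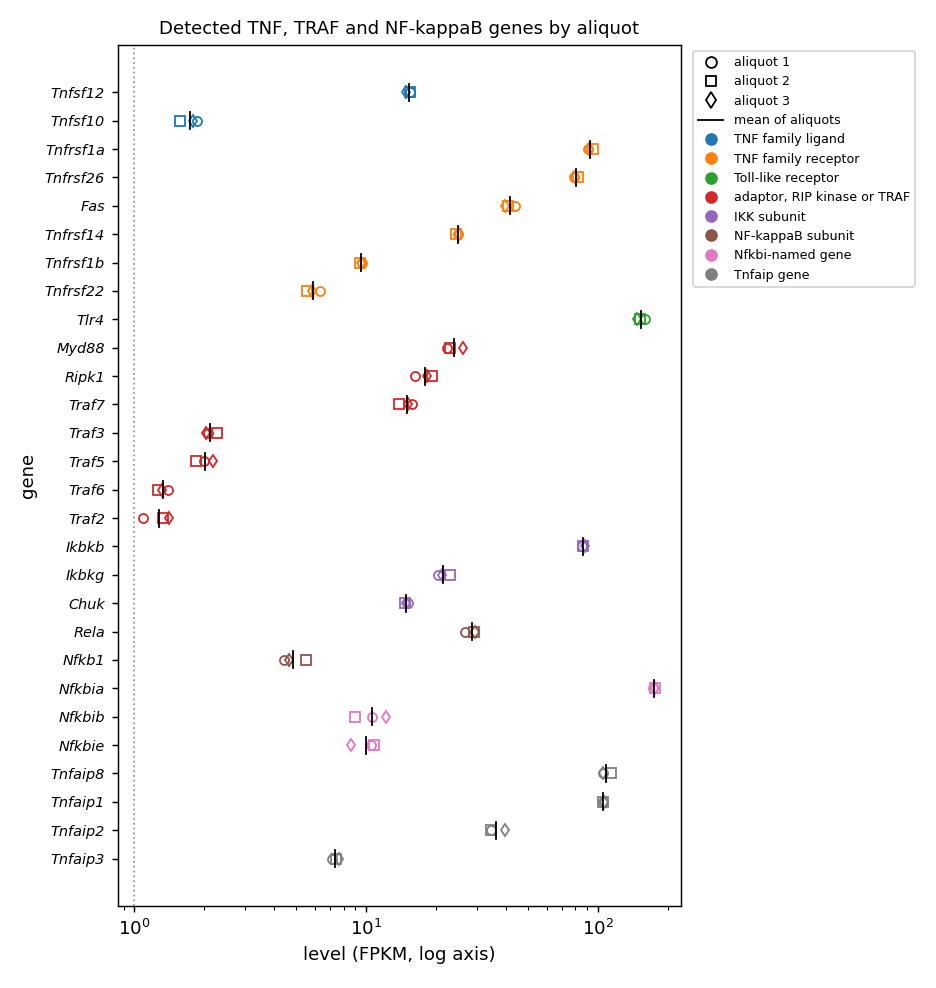
Level of each detected gene (y axis, grouped by role) in FPKM on a log axis, with 1 symbol per aliquot, a bar at the mean of the 3 aliquots and a dotted line at the detection limit of 1 FPKM. The genes span from Traf2 with 1.28 FPKM to Nfkbia with 175 FPKM, while the aliquots of each gene lie close together.

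In the order of all 39 genes above 0, the aliquots of 17 of 38 neighbouring pairs overlapped, 10 of them among the 27 pairs of detected genes. Adjacent genes overlapped in the runs Tnfaip8 and Tnfaip1, Tnfrsf14 to Myd88 to Ikbkg, Tnfsf12 to Traf7 to Chuk, and Nfkbib to Nfkbie to Tnfrsf1b. The same held for the runs Traf3 to Traf5 to Tnfsf10 and Traf6 to Traf2 to Tnfrsf19. Genes next to each other in these runs can therefore not be ranked. Tnfrsf14 did not overlap with Ikbkg, Traf3 with Tnfsf10 or Traf6 with Tnfrsf19, and the first of each was higher in every aliquot. Nfkbia, Tlr4, Tnfrsf1a, Ikbkb, Tnfrsf26, Fas, Tnfaip2, Rela, Ripk1, Tnfaip3, Tnfrsf22 and Nfkb1 overlapped with neither neighbour, though the highest aliquot of Tnfaip2 and the lowest of Fas both round to 39.7 FPKM.

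Partner genes of the pathway outside the family were also examined. Of 27 signalling partners 18 were detected, with a median of 18.4 FPKM, and 7 were listed at 0. The highest were Cflar, the gene of the caspase-8 inhibitor c-FLIP, with 180.4 ± 3.39 FPKM, the kinase gene Map3k1 with 149 ± 2.90 FPKM, the ubiquitin-conjugating enzyme gene Ube2n with 74.98 ± 1.41 FPKM, and Ly96. Caspase-8 itself (Casp8) had 5.45 ± 0.236 FPKM. The kinase gene Map3k7 (TAK1), which activates IKK, had 1.06 ± 0.308 FPKM and was under 1 FPKM in aliquots 2 and 3. Tab1, Map3k8, Ikbke and Irak3 were listed at 0 beside the adaptors named above. Of 19 ubiquitin ligases, deubiquitinases and their adaptors 17 were detected, with a median of 34.2 FPKM, led by Tax1bp1, a partner of A20, with 605 ± 10.6 FPKM, the ligase subunit Skp1a with 449 ± 7.98 FPKM, Birc3, the gene of cIAP2, with 149 ± 3.59 FPKM and the ligase scaffold Cul1 with 121 ± 4.55 FPKM. Tnip1 was listed at 0. These lists were set beside the 36.5% of protein-coding genes detected, with no test of the lists.

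Known target genes of NF-kappaB as a list were detected at a share near that of other genes. Of 27 target genes measured, 12 (44.4%) were detected, against 36.5% of protein-coding genes. The other 15 were listed at 0, as were 54.5% of protein-coding genes, and the median was 0 FPKM in both. The survival gene Bcl2l1 had 406 ± 10.8 FPKM, followed by Birc3, the mitochondrial superoxide dismutase gene Sod2 with 49.9 ± 1.44 FPKM and the adhesion molecule gene Vcam1 with 34.9 ± 0.840 FPKM. The endothelial selectin gene Sele had 26.03, 29.7 and 28.6 FPKM and the adhesion molecule gene Icam1 12.3, 13.9 and 13.3 FPKM. The cytokine genes Csf1 and Cx3cl1 were detected too, with 23.7 ± 1.19 and 23.05 ± 0.300 FPKM. These 4 genes were named after their values were seen. The cytokine and chemokine genes Il6, Il1b, Csf2, Ccl2, Ccl5, Cxcl1, Cxcl2 and Cxcl10, and the genes Nos2, Ptgs2, Selp, F3, Mmp9, Junb and Bcl3, were listed at 0 in every aliquot. These genes answer to other factors too, so their levels do not measure NF-kappaB activity.

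Differences between aliquots were small for the family. The coefficient of variation of the 28 detected genes had a median of 5.49%, from 0.783% for Tnfaip1 to 15.2% for Nfkbib. A chi-square test of the recovered read numbers against the library totals, with Benjamini-Hochberg adjustment over 9120 genes of at least 30 reads, called 0 of the 34 family genes tested, where it called 1.09% of all genes, or 99. Without aliquot 1 it called 2 of 8847 genes, and without aliquots 2 and 3 in turn 98 of 8832 and 65 of 8795, with 0 family genes each time. At an unadjusted p under 0.05 it gave 7 of 34 family genes (20.6%) and 11.4% of all genes. The 7 were Nfkbie, Tnfaip2, Tlr4, Ripk1, Nfkbib, Tnfaip8 and Myd88, with adjusted chi-square p from 0.314 to 0.411. Their high aliquots differed: Tlr4 was highest in aliquot 1, Nfkbie, Ripk1 and Tnfaip8 in aliquot 2, and Nfkbib, Tnfaip2 and Myd88 in aliquot 3. The median statistic of the family was 1.25, against 1.81 for all genes and 1.39 for pure sampling noise. In the class of 1000 to 10000 reads it was 4.65 for 12 family genes and 1.92 for 4018 genes.

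**Figure D3:**
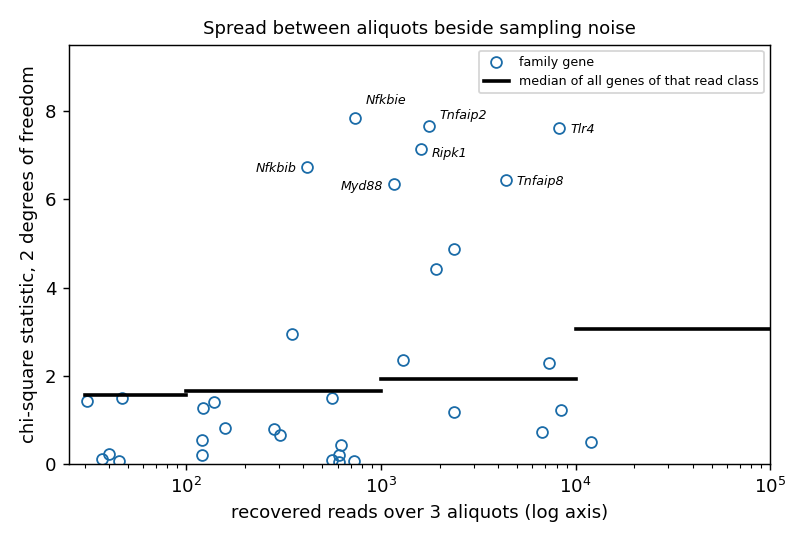
Chi-square statistic of the read numbers in 3 aliquots (y axis, 2 degrees of freedom) against the recovered reads of each family gene with at least 30 reads (x axis, log scale), with black lines at the median of all genes in each read class. The 7 labelled genes lie above 6, and no family gene passed the adjusted test.

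Levels of different genes depend on the gene length behind the FPKM, which was recovered with the reads. The implied length lay within 1 base of the mean over annotated transcripts for 16 of the 28 detected genes. If every gene were scaled to its longest annotated transcript, FPKM would be multiplied by a median of 0.582, as low as 0.261 for Tnfaip8, with no change for Rela. Under those lengths Nfkbia had 175 FPKM and stayed first, Tnfaip1 had 105 FPKM, Tnfrsf26 76.9 FPKM and Tlr4 66.5 FPKM, while Tnfaip8 had 28.2 FPKM and Tnfrsf1a 36.2 FPKM. Values between aliquots of 1 gene do not depend on the length.

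**Figure D4:**
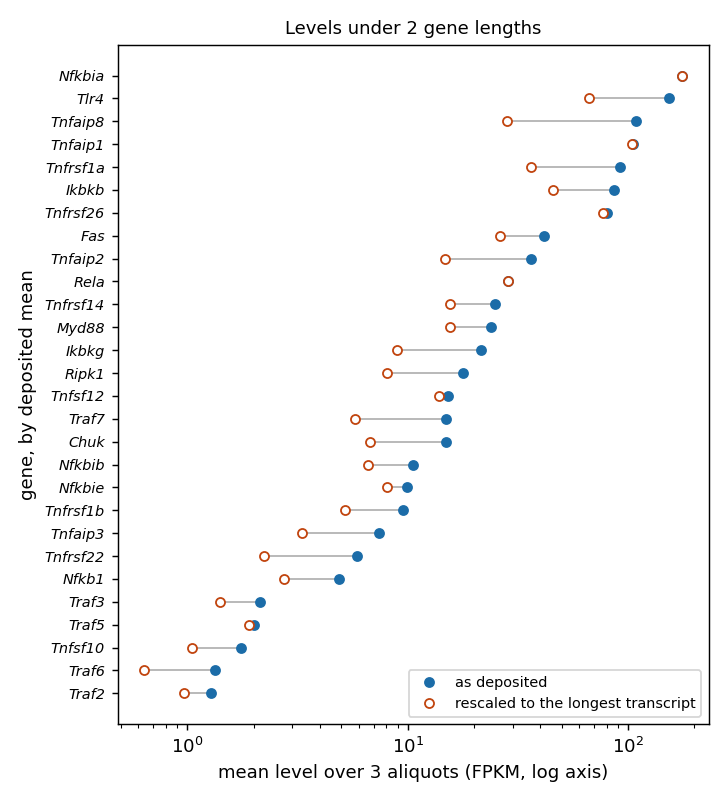
Mean level of each detected gene over 3 aliquots (x axis, FPKM on a log axis) as deposited and after rescaling to its longest annotated transcript, with genes on the y axis in order of the deposited mean. Nfkbia, Tnfaip1, Tnfrsf26 and Rela hardly move, whereas Tnfaip8 has 28.2 FPKM after rescaling against 108 FPKM as deposited, and Tlr4 66.5 against 153 FPKM.

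Promoters of detected family genes and of those listed at 0 had different medians of CpG dinucleotides, which are frequent in promoters of broadly used genes. The 21 detected genes with a promoter window held a median of 17 CpG dinucleotides in 300 bases, the 7 genes above 0 but not detected held 14, and the 37 genes listed at 0 held 7. The detected genes Tlr4, Tnfaip8, Ikbkb, Tnfrsf26, Tnfsf12, Tnfrsf22 and Nfkb1 had no promoter window and are not in these medians or in the shares below. Protein-coding genes in general showed the same order, with medians of 22 for detected genes, 20 for genes above 0 and 6 for genes listed at 0. Exceptions stood on both sides. Tnfrsf14 was detected with 2 CpG dinucleotides, and Tnfrsf11a and Rel were listed at 0 with 43 and 42. Decamer matches were found in 4 of 21 detected genes (19.05%), 2 of 7 genes above 0 but not detected (28.6%) and 2 of 37 genes listed at 0 (5.41%). Among protein-coding genes of the same classes the shares were 1.56%, 1.73% and 1.49%. The family shares rest on few genes and are a description.

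**Figure D5:**
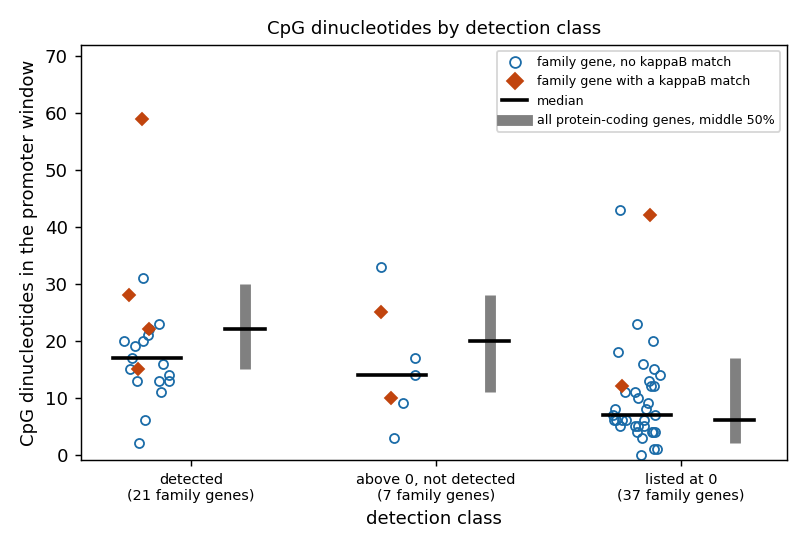
CpG dinucleotides in the promoter window of 300 bases (y axis) of each family gene by detection class (x axis), with filled diamonds for genes that hold the kappaB decamer, a black line at the median and grey bars for the middle 50% of all protein-coding genes of that class. Medians are 17 for 21 detected family genes and 7 for 37 listed at 0.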

How the data were processed

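The authors deposited 1 FPKM value per gene for each of 3 aliquots of 1 cDNA pool. The build GRCm38 and the tools TopHat2 (2.0.12) and HTSeq (0.6.1) are named in the submitters' processing notes. Their settings, the annotation release, the gene length and any use of strand were not given in the sources used here. Symbols were matched for 37607 of 39179 Ensembl identifiers. Gene types, coordinates and transcripts were taken from GENCODE M21 (GRCm38). The authors may have used another release. Promoters were RefSeq's.

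The symbol rule matched 81 rows, of which the antisense gene Tnfsf13os is not protein-coding and was left out. Detection was at least 1 FPKM in every aliquot. Ratios were taken on log2(FPKM + 1), which understates low genes, for 21 of 29 fixed pairs, leaving out 8 with a gene under 3 reads. Low FPKM values are whole multiples of 1 read, so library totals and reads were recovered: the total is the most frequent value over genes under 0.5 FPKM, and the length the smallest whole number that makes all reads whole within 0.0001 reads, or its multiple within 1 base of the mean transcript (374 genes). All 11142 genes above 0 gave a solution, and their reads sum to 96.7% of each total. Reads can be too low by a whole factor. No count model was run, since there are no groups. A chi-square test (scipy 1.17.1) set the spread between aliquots beside sampling noise. It was tried only on reads simulated with Poisson noise, which the test itself assumes, so that trial cannot show how it behaves on amplified cDNA. Reads of amplified cDNA are not independent molecules, so limits and intervals cover counting error only, and p-values measure spread between aliquots. The members, gene pairs, partner lists, markers and rules for named genes (all members, the 4 highest and the listed zeros of each list, both genes of each pair) were chosen with earlier results of these data known. Adam17, Tirap, Casp8, Map3k7 and Map3k14 were named after their values were seen. The kappaB decamer, CpG counts and shared 50-base words were chosen after values had been seen.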

Additional observations from a re-analysis of the deposited data

How the results depend on the processing

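The 28 detected genes became 31 at 0.5 FPKM (38.75%, against 38.4% of protein-coding genes) and 22 at 5 FPKM (27.5%, against 29.2%). With a mean of at least 1 FPKM they were 29 (36.25%, against 37.3%). With the longest transcripts as lengths they were 25 (31.25%, against 34.8%), where Tnfsf10, Traf2 and Traf6 were lost. Without any 1 aliquot they were 28 to 29 (35% to 36.25%), with no share of protein-coding genes at hand for these settings. Alternatives were also chosen after seeing the data. At least 10 reads in every aliquot gave 33 (41.25%, against 38.7% of protein-coding genes). Leaving out the gene that lies mostly in exons of others gave 28 of 79 (35.4%), also with no share of protein-coding genes at hand. The median level of 0 FPKM became 9.48 FPKM over the 39 genes above 0, against 12.9 FPKM for protein-coding genes above 0. Of 21 pairs, 14 had the first gene higher, a count that depends on the order in which each pair was written. It was also 14 with a pseudocount of 0.1 FPKM, and 13 to 15 without 1 aliquot. With the longest transcripts it was 14 again, but Traf6/Traf2 went from 0.04 to -0.26 and Tnfaip1/Tnfaip8 from -0.04 to 1.86. No pair whose aliquots all had 1 sign reversed. With the longest transcripts 19 of 21 differences moved by more than 1 SD, and with the other pseudocount 13 did. The chi-square test called 0 family genes at minimums of 10 and 100 reads, with median-ratio size factors and without any 1 aliquot, and 2 to 117 genes in all. Without aliquot 1 it called 2 of 8847 genes, against 99 with all aliquots, 98 without aliquot 2 and 65 without aliquot 3. The family calls did not change. No paired analysis was possible because the aliquots form 1 group. The 11 genes above 0 but not detected rest on 1 to 139 reads each.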
